A study of Homo sapiens with 4 samples.

Results

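The S100 proteins are small calcium-binding proteins, and 10 genes of the family, S100A2, S100A4, S100A6, S100A8, S100A9, S100A10, S100A11, S100A14, S100A16 and S100P, were followed in single cells of MCF10A patches. They were chosen by gene name, with earlier results of these data known. All 10 had a row with counts in each of the 4 plates, out of 19577 gene rows in the series. The cell line, MCF10A, derives from human breast epithelium, is not transformed and carried a histone H2B-GFP marker here. In all 4 patches, 10000 cells were seeded as a circle on a fibronectin-coated dish and kept for 6 days in medium that contained horse serum, insulin, hydrocortisone, cholera toxin and EGF. Cells were then labelled by location with 2 photoactivatable dyes, taken up with trypsin, sorted alive into 384 wells per plate and measured by SORT-seq, a plate method in which unique molecular identifiers (UMIs) mark single transcripts. In the low-resolution experiment (2 plates) the patch was divided into bands 1000 to 1500 μm wide, and in the high-resolution experiment (2 plates) the outermost bands were 250 μm wide. Each plate holds cells of several bands of a patch, and the band of each well was not analysed here. The plate is the replicate, 1 cell line underlies all of them, and cells of a plate were never counted as replicates.

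S100 proteins carry EF-hand motifs and mostly work as dimers that bind target proteins when calcium rises. Some act inside the cell on annexins or myosin, and some are secreted and bind receptors such as RAGE and TLR4. Nearly all of their genes lie close together in the epidermal differentiation complex of chromosome 1, and several mark epithelia or change in epithelial-to-mesenchymal transition (EMT), in which epithelial cells lose adhesion and gain motility.

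Of the 10 genes, 9 lie on chromosome 1 (GRCh38.p14), from S100A10 at chr1:151982915-151993859 to S100A14 at chr1:153614255-153616325, and 8 of these are on the minus strand, with S100A9 on the plus strand. S100P is on chromosome 4, at chr4:6693878-6697170 on the plus strand. The annotated S100A4 gene overlaps S100A3 on the same strand, so transcripts of their shared part cannot be assigned to either with certainty. The 250 bases upstream of the RefSeq transcription start are shown for the 3 genes that followed the EMT score described below, 5′ to 3′ on the strand of the gene. Capitals mark matches to 4 motifs, each searched on both strands. The first is the E-box CAGGTG, to which EMT transcription factors of the SNAI and ZEB families bind. The second is the TATA box TATAAA. The others are the AP-1 site TGANTCA and the GC box, spelled GGGCGG.
S100A14, chr1:153616326-153616575, minus strand: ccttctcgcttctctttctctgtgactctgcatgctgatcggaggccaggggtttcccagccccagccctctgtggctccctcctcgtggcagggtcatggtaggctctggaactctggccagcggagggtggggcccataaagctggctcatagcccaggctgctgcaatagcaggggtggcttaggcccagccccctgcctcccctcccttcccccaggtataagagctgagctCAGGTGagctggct
S100P, chr4:6693628-6693877, plus strand: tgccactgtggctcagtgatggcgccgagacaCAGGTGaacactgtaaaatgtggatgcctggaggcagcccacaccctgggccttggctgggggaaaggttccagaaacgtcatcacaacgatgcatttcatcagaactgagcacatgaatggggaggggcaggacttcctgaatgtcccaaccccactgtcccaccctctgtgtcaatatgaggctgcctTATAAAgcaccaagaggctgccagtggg
S100A10, chr1:151993860-151994109, minus strand: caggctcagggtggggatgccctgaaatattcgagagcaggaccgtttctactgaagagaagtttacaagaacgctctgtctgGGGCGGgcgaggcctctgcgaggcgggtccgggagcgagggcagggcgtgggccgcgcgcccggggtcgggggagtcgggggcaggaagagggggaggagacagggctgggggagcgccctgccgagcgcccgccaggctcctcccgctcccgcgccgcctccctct
The window of S100A14 held an E-box beginning 14 bases before the start, and that of S100P held an E-box near its far end and a TATA box 28 bases before the start. That of S100A10 held a GC box and no match to the other motifs. RefSeq lists 14 such windows for the 10 genes, since S100A2, S100A8 and S100A16 have more than 1 start. Of the 14 windows, 9 (in 7 genes) held an E-box, 5 (in 4 genes) a TATA box, 5 (in 5 genes) a GC box and 1 an AP-1 site. Among all 35116 windows of this length, 17.5% held an E-box, 10.7% a TATA box, 42.6% a GC box and 6.57% an AP-1 site, and windows of the same gene are not independent of each other. A match describes the letters only, and no binding was measured.

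After the filter of the study (2000 to 9000 features, under 40% mitochondrial counts), 1146 cells of 1536 wells remained, 562 from the low-resolution and 584 from the high-resolution experiment. The plates held 11709628 to 14992348 counts, and the median cell had 30118 to 40893 gene counts, with both high-resolution plates deeper than both low-resolution plates. The file names place low-resolution replicate 1 on another flow cell than the other 3 plates. Of the markers of basal and other breast epithelium, KRT5, KRT17, KRT8, ITGA6 and LAMB3 were detected in over 90% of the cells of each plate, KRT18 in 77.3% to 91.8%, EPCAM in 59.04% to 70.8%, CDH1 in 47.8% to 65.7%, KRT14 in 43.9% to 77.3% and TP63 in 2.58% to 4.12%. ESR1 was found in at most 3.78% of cells, and PGR had 1 UMI in all. Of 8 leukocyte markers, which matter here because leukocytes express S100A8 and S100A9, CD14 had a UMI in 36.9% to 59.8% of cells, CD68 in 18.6% to 26.96% and CSF1R in 16.2% to 25.5%. TYROBP, LYZ and ITGAM were found in at most 6.64% of cells, PTPRC in 0.344% to 1.71%, and FCGR3A had 0 UMIs. Of the fibroblast and endothelial markers, COL1A1 had a UMI in 17.3% to 27.6% of cells and PECAM1 in 28.5% to 47.1%. The others (COL1A2, DCN, PDGFRA, LUM, CDH5 and VWF) were found in at most 1.71%. The cells of all plates share the same 384 well numbers by design. The 10 genes together took 0.509% to 0.550% of all gene counts in a plate.

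The genes spanned a range of over 100-fold in level, given here as mean counts per 10000 gene counts of a cell. Because UMIs count molecules at the 3′ end, the values were not divided by gene length. S100A6 (calcyclin) was highest, with 19.5 and 19.4 in low-resolution replicates 1 and 2 and 14.6 and 16.7 in high-resolution replicates 1 and 2. S100A11, which binds annexin A1, followed with 13.54, 13.99, 13.96 and 14.18 in the same order of plates. Both had a UMI in 100% of cells of every plate. S100A16 stood at 7.15, 6.54, 8.38 and 8.12, and S100A10, the partner of annexin A2, at 5.86, 5.56, 7.18 and 7.89. These 2 neighbours in the order overlapped between plates.

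S100A14, S100P and S100A2 formed a middle group whose plates overlapped from each gene to the next. S100A14, an epithelial member of the family, had 3.09, 3.72, 2.54 and 2.76 counts per 10000, and S100P, which binds ezrin, had 2.96, 3.47, 1.75 and 1.73. S100A2, a gene of basal epithelium, had 2.02, 1.62, 1.93 and 2.49. S100A4, which binds non-muscle myosin, was lower in every plate than these, at 0.893, 0.900, 0.619 and 0.824.

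S100A8 and S100A9, whose proteins pair as calprotectin, were the rarest. S100A8 had 0.204, 0.349, 0.0812 and 0.132 counts per 10000, with a UMI in 25.4%, 32.8%, 15.5% and 19.8% of cells. S100A9 had 0.132, 0.198, 0.106 and 0.106, with a UMI in 25.8%, 36.5%, 22.3% and 25.6% of cells. When every cell was thinned to 10000 UMIs, leaving out 4, 3, 7 and 2 shallower cells, S100A8 was found in 10.8% and 17.5% of low-resolution cells (exact binomial intervals of 95%, 7.46% to 14.98% and 13.2% to 22.6%) and in 6.34% and 6.19% of high-resolution cells (3.80% to 9.83% and 3.71% to 9.60%). Intervals cover counting error only. The plot of levels by plate shows the order.

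**Figure D1:**
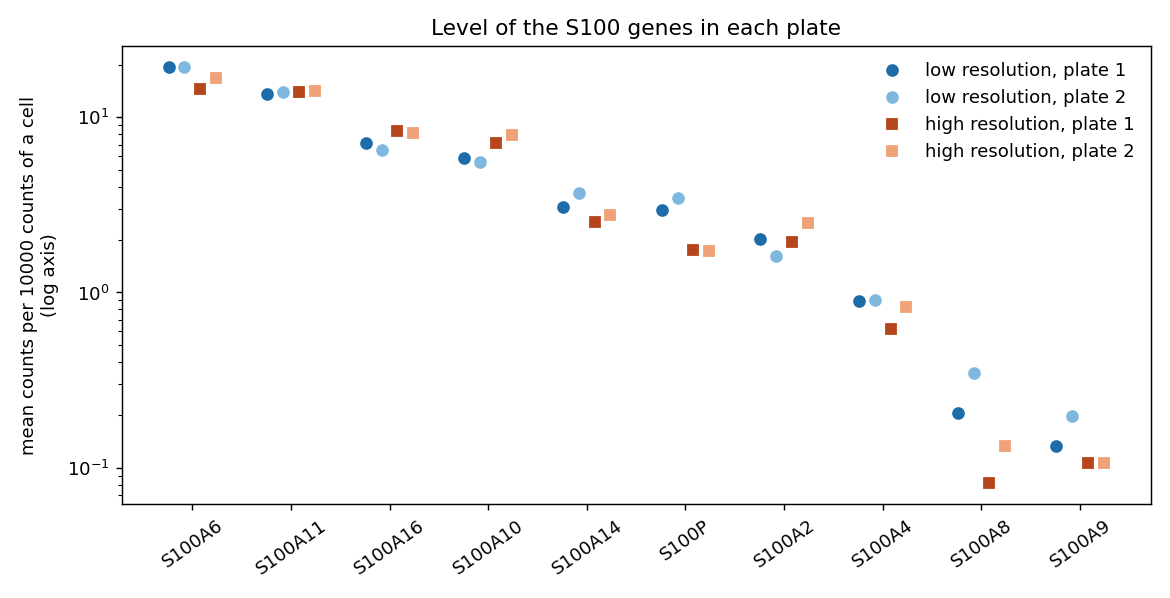
Mean counts per 10000 gene counts of a cell (log axis) for the 10 S100 genes, with 1 point per plate, circles for low-resolution and squares for high-resolution plates. S100A6 and S100A11 lie above 13 in every plate, and S100A8 and S100A9 lie below 0.35.

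The relation of each gene to EMT was described by its Spearman rho across the cells of a plate with the EMT score, the enrichment score of mesenchymal (M) genes minus that of epithelial (E) genes. S100A14 is one of the E genes of the study and was left out of that list here, so that it does not enter its own score. A gene was taken to follow the score when its rho was 0.3 or higher in each of the 4 plates, or -0.3 or lower in each. Of the 8032 genes detected in 20% or more of the cells on every plate, 2.60% rose and 2.70% fell with the score by this rule. Among the 9 S100 genes in that set (S100A8 missed it in the high-resolution plates), 1 rose, S100A10, and 2 fell, S100A14 and S100P. All gene lists here were drawn up with earlier results of these data known. Counts of listed genes set beside shares over all genes are therefore descriptive. Cells of a plate share library and patch, so rho is given without a p-value.

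Across the cells of low-resolution replicates 1 and 2 and high-resolution replicates 1 and 2, S100A14 had a rho of -0.734, -0.712, -0.757 and -0.772. It ranked 10 from the lowest of the 8032 genes by mean rho, close to 2 of the scored E genes, CDH1 (E-cadherin, mean -0.736) and EPCAM (mean -0.723). When the cells of a plate were ordered by score and divided into 3 equal parts, the bottom part held 5.20, 6.00, 6.00 and 5.91 counts per 10000 of S100A14, in the same order of plates. The top part held 0.245, 0.544, 0.226 and 0.195. The level was thus 21.2, 11.03, 26.6 and 30.3 times higher in the bottom part. S100A14 had a UMI in 98.97% to 100% of bottom cells and in 54.1% to 56.04% of top cells. Divided into 5 parts, it stayed at 5.01 or more in the lowest 2 parts of every plate, and the drop came later along the score in the low-resolution plates: in the middle part it was still at 4.12 and 6.32 there, against 0.883 and 2.45 in the high-resolution plates. The score was fitted within each experiment, so equal parts need not mean equal EMT between experiments.

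S100P had a rho of -0.607, -0.648, -0.677 and -0.577 and ranked 50 from the lowest. Its shape differed from that of S100A14, with the largest drop at the low end of the score. The lowest of 5 parts held 7.15, 6.49, 4.85 and 3.87 counts per 10000 and the next part already 3.37, 4.50, 2.04 and 1.90. The level fell from part to part in all 4 plates, to 1.03, 1.08, 0.391 and 0.580 in the highest part. Between the bottom and top of 3 parts the difference was 5.00, 5.13, 7.99 and 4.70-fold.

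S100A10 was the member that rose by the rule on rho, with 0.453 and 0.516 (low resolution) and 0.39995 and 0.421 (high resolution). It ranked below FN1 (fibronectin, mean 0.750) and VIM (vimentin, mean 0.605), which are scored M genes, whereas S100A10 is not in the score. It varied with both components of the score, with -0.394 to -0.562 against the E score and 0.286 to 0.341 against the M score. Its change in level was smaller than the falls of S100A14 and S100P. From the bottom to the top of 3 parts it went from 4.38 to 7.60, from 4.11 to 7.58, from 5.80 to 8.22 and from 6.97 to 9.51 counts per 10000, or 1.74, 1.85, 1.42 and 1.36-fold. S100A10 also had a rho of -0.383, -0.364, -0.447 and -0.462 with the mitochondrial share of a cell. Given the depth and mitochondrial share of the cells, its rho with the score lay between 0.271 and 0.483 and missed 0.3 in both high-resolution plates, while S100A14 (-0.761 to -0.709) and S100P (-0.630 to -0.472) still followed the score. With mitochondrial counts left out of the library size, the rho of S100A10 with the score was 0.367 to 0.498. Without the mitochondrial limit on cells it was 0.450 to 0.545. The part of the mitochondrial share in the relation of S100A10 was not tested.

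**Figure D2:**
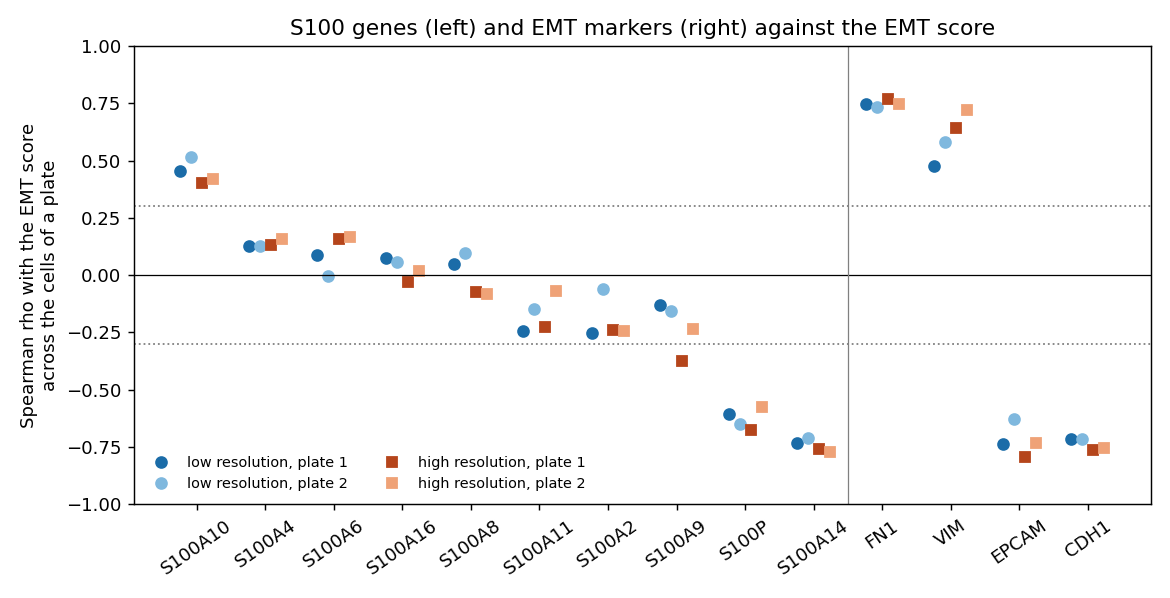
Spearman rho of each S100 gene and of 4 EMT markers with the EMT score across the cells of a plate, with 1 point per plate and dotted lines at 0.3 and -0.3. The EMT markers are themselves scored genes, and the S100 genes are not. S100A10 lies above 0.3 and S100P and S100A14 below -0.3 in all 4 plates, at -0.577 or lower.

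The other 7 genes did not follow the score by this rule. S100A4, often used as a mesenchymal marker, had a rho of 0.126, 0.125, 0.130 and 0.158, above 0 in every plate but below the limit. Its change in level along the score is given below. S100A6 had 0.0856, -0.00427, 0.159 and 0.166, and S100A16 had 0.0767, 0.0557, -0.0319 and 0.0165. On the other side of 0 in every plate were S100A2 (-0.253, -0.0606, -0.241 and -0.245), S100A9 (-0.132, -0.157, -0.374 and -0.236) and S100A11 (-0.242, -0.149, -0.227 and -0.0694). S100A8 had 0.0468 and 0.0986 at low resolution and -0.0732 and -0.0821 at high resolution. The median of the mean rho over the 9 genes was -0.172, against 0.0186 over all 8032 genes.

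S100A2 and S100A4 showed profiles that a single rho does not convey. In 5 parts of the score, S100A2 was highest in the second or the third part of every plate, at 3.31, 2.57, 3.04 and 3.44 counts per 10000, and ended at 1.70, 1.39, 1.39 and 1.84 in the highest part. S100A4 was highest in part 4 of the 5 in every plate, at 1.03, 1.14, 0.802 and 1.41. From the bottom to the top of 3 parts, S100A4 rose 1.37, 1.53, 1.48 and 1.84-fold, in the same order of plates. The rise of S100A10 was 1.74, 1.85, 1.42 and 1.36-fold, so its higher rho did not go with a larger fold in every plate. S100A8 was highest in part 4 in the low-resolution plates alone, at 0.377 and 0.718, where the high-resolution plates had 0.0681 and 0.0662. S100A9 had few counts in the top of 3 parts of the high-resolution plates, 7 and 10 UMIs against 67 and 64 in the bottom part, and 37 and 60 against 55 and 80 in the low-resolution plates. The fall of S100A9 was thus 8.25 and 6.66-fold in the high-resolution plates and 1.32 and 1.19-fold in the low-resolution plates, a difference that was not tested. Against single markers, S100A14 had a mean rho of 0.753 ± 0.0214 with EPCAM, 0.685 ± 0.0588 with CDH1, -0.688 ± 0.0107 with FN1 and -0.509 ± 0.0903 with VIM (SD, n = 4 plates). S100A2 also varied with EPCAM, at 0.395, 0.318, 0.331 and 0.438, and had a mean rho of -0.0573 with VIM.

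**Figure D3:**
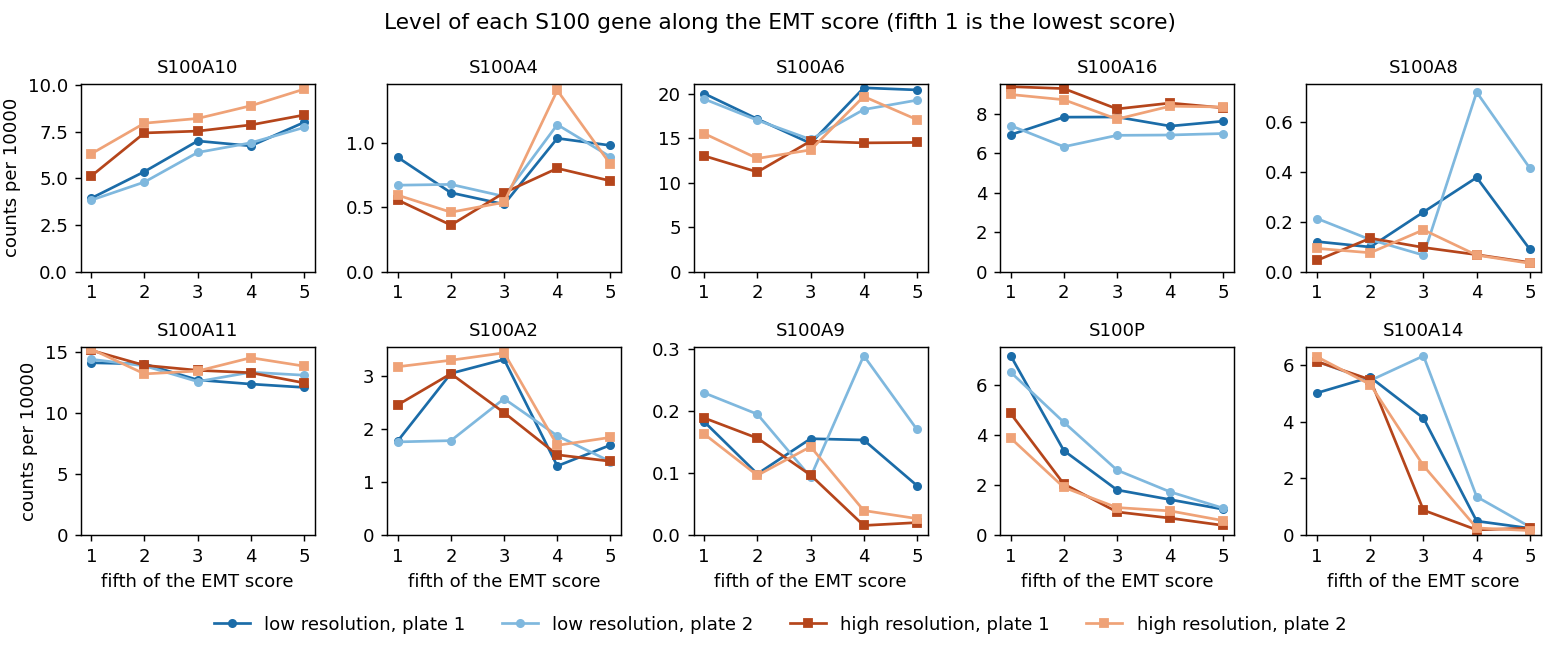
Counts per 10000 of each S100 gene in 5 equal parts of the cells of a plate ordered by the EMT score (part 1 lowest), with 1 line per plate and a separate axis from 0 for each gene. S100P falls from part to part in all 4 plates, S100A14 stays at 5.01 or more in the first 2 parts and ends below 0.3, and S100A10 ends between 7.72 and 9.78.

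Co-expression was described in the same way between the genes. Among the 36 pairs of the 9 genes, 5 pairs (13.9%) had a rho of at least 0.3 in all 4 plates and 2 pairs (5.56%) a rho of at most -0.3. Over all pairs of the 8032 genes the shares were 0.151% and 0.0406%. These genes were not matched to the S100 genes in level, and their shares were not recounted in thinned cells. The limit on rho was not met in shallower cells: after thinning to 10000 UMIs per cell none of the pairs (0) reached 0.3 in all 4 plates, although all 7 kept their sign in every plate.

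The pair with the highest mean was S100A14 and S100P, the genes that fell with the score, at 0.379, 0.447, 0.577 and 0.396. Given the EMT score, their rho was between -0.124 and 0.132. The opposite pair of S100A10 and S100P had -0.476, -0.452, -0.460 and -0.409, and -0.284 to -0.180 given the score. S100A2 and S100A14 had 0.408, 0.305, 0.318 and 0.396, and 0.214 to 0.373 given the score. These 3 pairs no longer passed the limit once the score was taken into account.

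The other 4 pairs still passed it. S100A4 and S100A6, which lie 7.63 kb apart on the same strand, had 0.369, 0.431, 0.384 and 0.456, and 0.363 to 0.441 given the score. S100A2 had 0.307, 0.339, 0.337 and 0.321 with S100A16, which in turn had 0.302, 0.383, 0.322 and 0.313 with S100A10. S100A2 and S100A6, only 25.1 kb apart, varied in opposite directions, at -0.352, -0.435, -0.416 and -0.408, and -0.436 to -0.342 given the score. The closest pair, S100A14 and S100A16, 1.12 kb apart, had a mean of 0.122 ± 0.0584 (SD, n = 4 plates). For 1 pair, the sign turned in every plate once the score was taken into account: S100A10 and S100A14 had -0.184, -0.163, -0.223 and -0.177, and 0.134 to 0.339 given the score. S100A2 and S100A10, at 0.244, 0.388, 0.253 and 0.302, passed the limit given the score, at 0.393 to 0.491.

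**Figure D4:**
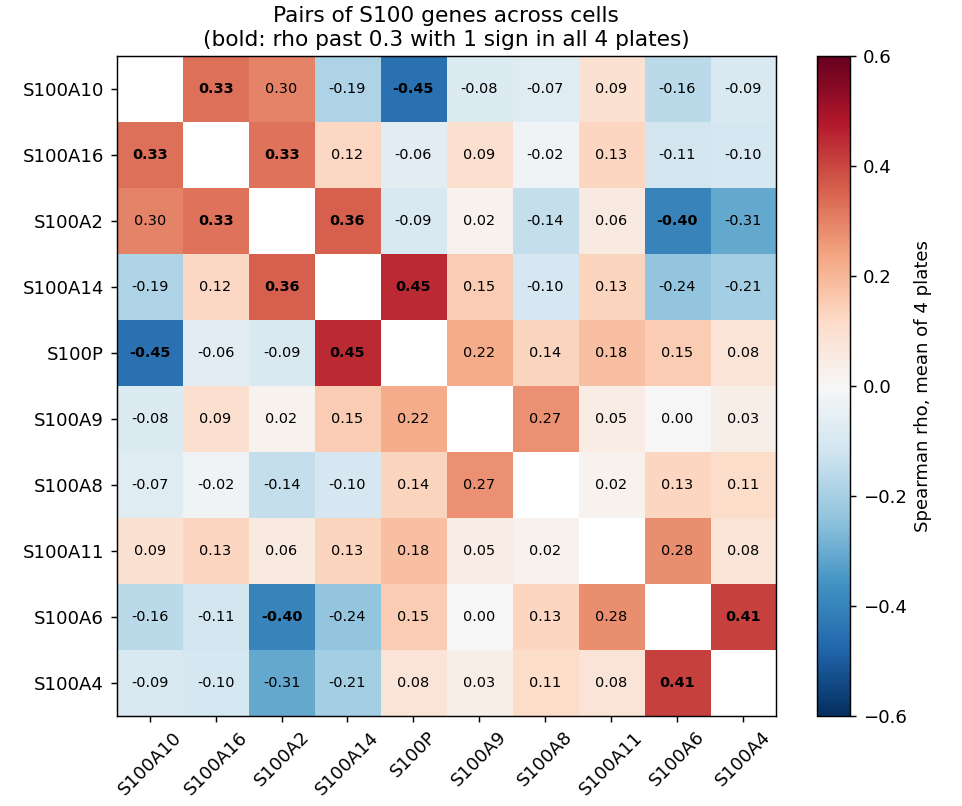
Mean over 4 plates of the Spearman rho across cells for each pair of S100 genes (colour from blue for negative to red for positive), with bold values where rho was past 0.3 with the same sign in every plate. S100A14 with S100P is at 0.45 and S100A10 with S100P at -0.45, while S100A2 is at -0.40 with S100A6.

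S100A8 and S100A9 had a rho of 0.229, 0.292, 0.322 and 0.246. Of cells with a UMI of S100A8, 39.2%, 51.7%, 51.1% and 44.8% also had one of S100A9, against 21.2%, 29.1%, 17.1% and 20.9% of the other cells of the same plates. The UMIs of S100A8 were unevenly spread, with 30, 29, 10 and 14 in the richest cell of each plate. At 10000 UMIs per cell the shares with S100A9 were 35.5%, 42.6%, 33.3% and 33.3% against 7.03%, 11.3%, 7.14% and 8.06%. Cells with both UMIs were 29, 46, 23 and 26 at full depth and 11, 20, 6 and 6 after thinning.

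The genes outside the list that varied most like each member differed between members. For S100A14 these were EPCAM (mean rho over 4 plates 0.753) and MAL2 (0.735), and for S100P they were SLPI (0.638), a secreted protease inhibitor, and FXYD3 (0.629). S100A10 was nearest to LGALS1 (galectin-1, 0.640) and TMSB10 (0.619), and its partner ANXA2 was among the next, with a mean of 0.610 and plates between 0.4999 and 0.693. For S100A16, ANXA2 (0.441) and PPIA (0.374) came first. S100A2 was nearest to SFN (0.451), the epithelial 14-3-3 protein sigma, and KRT7 (0.436). S100A6 was nearest to PSAP (0.496) and FTH1 (0.482), which encode a lysosomal protein and the ferritin heavy chain, and S100A4 to SELENBP1 (0.309) and FTH1 (0.295). S100A11 was nearest to CDA (0.335) and PERP (0.304), a desmosomal protein. For the sparse genes the values were lower, with MME (0.256) and ASS1 (0.231) for S100A8 and PTGES (0.280) and RARRES1 (0.244) for S100A9.

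The high-resolution plates were compared with the low-resolution plates on counts summed over the cells of each plate. These groups differ in the width of the bands from which cells were sorted, so a change within cells and a change in which cells were collected cannot be told apart. They are also separate experiments. The width of the bands therefore cannot be told apart from other differences between them, such as the greater depth of the high-resolution plates. Fewer cells expressing a gene and less RNA per cell cannot be told apart in such sums either. By edgeR's quasi-likelihood test with Benjamini-Hochberg adjustment over 12437 genes, 6.26% of genes were higher and 6.18% lower in the high-resolution plates at an adjusted p under 0.05. Of the 10 S100 genes, 1 was higher (S100A10) and 3 were lower (S100A8, S100A9 and S100P). With 2 plates against 2, an exact permutation test of a single value cannot go below p = 0.333.

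S100P had 299.6 and 347.6 CPM (counts scaled to the size of a library, with TMM factors) at low resolution and 200.6 and 167.8 at high resolution. Both high-resolution plates were below both others, with a log2 difference of -0.81 ± 0.12 (SE, edgeR adjusted p = 0.00163). S100A8 had 16.6 and 30.9 CPM against 7.48 and 8.79, a log2 difference of -1.54 ± 0.26 (adjusted p = 0.00293). Both calls held with any 1 plate left out, and the difference of S100A8 was -1.02 without low-resolution replicate 2 (adjusted p = 0.0147). S100A9 had 12.9 and 20.0 CPM against 10.3 and 9.46, a log2 difference of -0.73 ± 0.22 (adjusted p = 0.0474). This call was lost without low-resolution replicate 2 (log2 difference -0.37, adjusted p = 0.295), without high-resolution replicate 2 (-0.66, 0.104) and with DESeq2 (-0.73, 0.0785). S100A10 had 591.8 and 593.6 CPM against 728.0 and 832.3, a log2 difference of 0.40 ± 0.11 (adjusted p = 0.0321). Its adjusted p rose to 0.105 without low-resolution replicate 1, 0.0850 without low-resolution replicate 2 and 0.250 without high-resolution replicate 2, at differences of 0.40, 0.40 and 0.31.

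The summed level of the 8 leukocyte markers was also lower in the high-resolution plates, at 0.342 to 0.424 counts per 10000 against 0.558 to 0.742 in the low-resolution plates, but its members did not all move this way. CD14 had a UMI in 48.1% and 59.8% of low-resolution cells and in 37.8% and 36.9% of high-resolution cells, and LYZ in 3.09% and 5.54% against 1.37% and 1.71%. CSF1R (16.2% and 25.5% against 24.1% and 25.3%), CD68 (19.6% and 23.6% against 18.6% and 26.96%) and TYROBP (1.37% and 6.64% against 1.03% and 2.05%) overlapped between the experiments. ITGAM had 14 and 7 UMIs against 0 and 3, PTPRC was found in 0.344% and 0.738% against 1.03% and 1.71%, and FCGR3A had 0 UMIs in all plates. All patches were seeded with MCF10A cells, and the part of these markers in the difference of S100A8 and S100A9 was not tested. The EMT markers moved between the experiments as well: VIM had a log2 difference of 0.94 ± 0.13 and FN1 of 0.77 ± 0.11, and CDH1 of -0.68 ± 0.12 (edgeR adjusted p = 0.00117, 0.00127 and 0.00321). EPCAM, at -0.11 ± 0.11, did not pass (adjusted p = 0.566).

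The remaining 6 genes did not pass the test. S100A14 was at -0.29 ± 0.13 (edgeR adjusted p = 0.163) and S100A6 at -0.29 ± 0.11 (0.0988). S100A16 was at 0.29 ± 0.10 (0.0839), S100A2 at 0.29 ± 0.13 (0.163), S100A4 at -0.21 ± 0.13 (0.307) and S100A11 at 0.09 ± 0.10 (0.606). S100A14 passed without low-resolution replicate 1 (log2 difference -0.46, adjusted p = 0.0455) and was at -0.08 without low-resolution replicate 2. In normalised CPM the plates of the 2 experiments did not overlap for any of the 10 genes, with 4 above and 6 below in the high-resolution plates. Over all genes tested, 57.3% did not overlap, in either direction. The median log2 difference of the 10 genes was -0.25, against -0.02 over all genes tested.

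**Figure D5:**
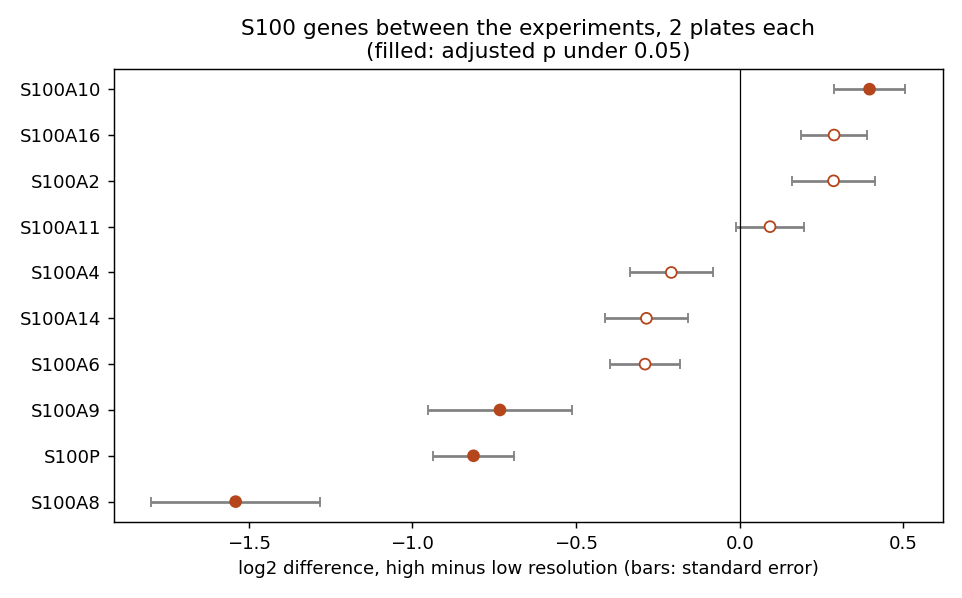
Log2 difference of each S100 gene between high- and low-resolution plates (2 plates each, edgeR), with bars for the standard error and filled points for an adjusted p under 0.05. S100A8 lies lowest at -1.54, and S100A10 is the filled point above 0, at 0.40.

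The comparison was repeated within the bottom and the top of 3 parts of the EMT score of each plate. The score was fitted within each experiment, so the same part need not mean equal EMT in both experiments. Among the bottom cells, 7 of the 10 genes passed, 3 higher and 4 lower, where 6.11% of all 10786 genes tested were higher and 5.09% lower in the high-resolution plates. S100A2 (log2 difference 0.58, edgeR adjusted p = 0.0138), S100A10 (0.62, 0.00551) and S100A16 (0.36, 0.0450) were higher in the high-resolution plates. S100A4 (-0.51, 0.0360), S100A6 (-0.49, 0.0144), S100A8 (-1.06, 0.0478) and S100P (-0.69, 0.00375) were lower. S100A14 was at 0.12 there (adjusted p = 0.553). Among the top cells, S100A8 (-2.90, 0.000622), S100A9 (-2.84, 0.000272) and S100P (-0.97, 0.00186) were lower and 0 S100 genes were called higher, where 2.64% of all 10556 genes tested were higher and 3.26% lower. Whether bottom and top cells differed in these values was not tested.

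Of 17 genes for binding partners and receptors of S100 proteins, 15 reached 20% of cells in every plate. Of these, 4 rose and 2 fell with the EMT score, where 2.60% of all 8032 genes rose and 2.70% fell. ANXA2, which forms a complex with S100A10, had a rho of 0.331, 0.436, 0.464 and 0.464. MYH9, the myosin heavy chain bound by S100A4, had a mean rho of 0.540, DLC1, which binds S100A10, of 0.568, and the adhesion molecule MCAM of 0.384. EZR (ezrin), bound by S100P, fell together with it, with a rho of -0.450, -0.474, -0.312 and -0.348, and ANXA11 had -0.456, -0.495, -0.359 and -0.397. The other 9 included ANXA1, the partner of S100A11, at a mean of -0.189, and CACYBP, the calcyclin-binding protein, at 0.230. AGER, which encodes RAGE, was nearly absent, at 0.00361 to 0.0117 counts per 10000 in the plates, and TLR4 was at 0.0711 to 0.118.

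Between the experiments, 4 of the 17 genes were higher and 2 lower in the high-resolution plates. Over all 12437 genes tested, 6.26% were higher and 6.18% lower. ANXA2 went from 2266 and 2375 to 3112 and 3003 CPM, a log2 difference of 0.40 ± 0.10 (edgeR adjusted p = 0.0260). CACYBP (0.51 ± 0.12, adjusted p = 0.0152), MYH9 (0.36 ± 0.10, 0.0402) and TLR4 (0.69 ± 0.20, 0.0440) were also higher. EZR went from 163.96 and 165.2 to 113.2 and 131.4 CPM, a log2 difference of -0.43 ± 0.11 (adjusted p = 0.0302), and AHNAK, a scaffold bound by S100A10 and annexin A2, was at -0.45 ± 0.13 (0.0445).

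Of 10 other S100 genes looked for, 7 had a row with counts, and S100A13 alone reached 20% of cells in every plate. Its rho with the EMT score was 0.299, 0.295, 0.324 and 0.405, short of the limit in both low-resolution plates, at 0.742 and 0.694 counts per 10000 there and 0.667 and 0.766 in the high-resolution plates. S100A3 was found in 11.4% to 16.4% of cells, and S100A1, S100A5, S100A7A, S100A12 and S100Z had between 0 and 8 UMIs in a plate. Between the outermost S100A genes, at chr1:151982915-153634361, RefSeq places 47 genes that are no S100 gene. Of these, 23 had counts and 1 reached 20% of cells in every plate: SPRR1B, a cornified envelope gene, which fell with the EMT score at -0.408, -0.389, -0.328 and -0.377.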

How the data were processed

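Single cells of 4 MCF10A patches (2 low-resolution and 2 high-resolution plates) were sequenced by SORT-seq. The values the authors deposited are expected counts: distinct UMIs of each gene in each well, raised to allow for UMI sequences used repeatedly by chance, unscaled, with all wells and the spike-ins included. The study's methods refer for alignment to a protocol of Muraro and colleagues, and the submitters' processing notes name STAR 2.7.3a, Seurat 4 and hg38. The correction for 4096 UMI sequences was undone to whole UMIs wherever cells were thinned or UMIs counted. The counting strand is not given in the sources used here.

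The kept cells had 2000 to 9000 features and a mitochondrial share below 40%, and spike-ins were left out of library sizes. Doublets were not called. Counts were log-normalized to 10000 per cell. The EMT score is a GSVA score (own implementation, Gaussian kernel, 1 fit per experiment) of 100 or 97 mesenchymal genes minus that of 63 epithelial genes. Levels in parts of the score are summed counts of a gene over summed gene counts, whereas levels per plate are means over cells. Plate sums of expected counts were rounded and tested with edgeR 4.0.16 (TMM, filterByExpr, glmQLFit and glmQLFTest, Benjamini-Hochberg adjustment), with DESeq2 1.42.0 as an alternative, and each standard error was computed as the size of the log2 difference over the root of F. The labels only number the replicates, and the study calls them biological replicates, taken here as separate patches. Both steps were tested on simulated data. Median depth was 30118 to 40893 gene counts per cell, and S100A8 and S100A9, with a UMI in few cells, rest on the fewest counts of the 10 genes.

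The 10 genes and all lists were chosen with earlier results of these data known. Named genes were the 10 genes, 4 EMT markers, 10 other S100 genes, 17 known partners and receptors, the 2 genes most like each member, and neighbours on chromosome 1. ANXA2 as a gene like S100A10 was named after its value was seen. Upstream windows and positions are from RefSeq (GRCh38.p14), and all 10 genes matched by symbol. Protein sequences were not used here, and the values of 1 partner gene are not reported here. The alternatives were other scores, filters, normalizations, tests, limits on rho, thinned cells and each plate left out in turn.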

Additional observations from a re-analysis of the deposited data

Results flagged for a closer look

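For 3 of the genes reported here, every low-resolution plate had a rho with the EMT score on one side of 0 and every high-resolution plate on the other, and the difference was not tested. S100A8 had a mean rho of 0.0727 at low resolution and -0.0776 at high resolution, with UMIs in few cells. ALCAM, an adhesion molecule that binds S100B, had -0.115 and 0.332, with plates at -0.135, -0.0946, 0.402 and 0.262. AHNAK had -0.156 and 0.103.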

How the results depend on the processing

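The count of S100 genes falling with the EMT score, 2, stayed at 2 in all 16 alternatives run. The count of rising genes, 1, became 0 with rho given depth and mitochondrial share and with a limit of 0.4, and was 1 in the other 14. Of the 140 values of mean rho recomputed for the 10 genes, 13 moved by 1 SD of the plates or more. The sign of the mean changed in 10, for the 2 genes nearest 0: S100A8 (-0.0025, above 0 in 7 alternatives, up to 0.025) and S100A16 (0.029, below 0 in 3, down to -0.043). The count of pairs, 7, became 0 in cells thinned to 10000 UMIs, 4 given depth and mitochondrial share, 11 at a limit of 0.2 and 1 at a limit of 0.4, and was 5 given the EMT score or without the mitochondrial limit. The number of S100 genes that differed between the experiments, 4, lay between 2 and 4 without 1 plate at a time (2 without low-resolution replicate 2 or high-resolution replicate 2) and was 7 among the bottom of 3 parts of the cells by EMT score. S100A14 turned to a log2 difference of 0.12 in those cells. With a replicate block the number was 4 (calls over all genes 2023 against 1547). The deviations of plates 1 of both experiments had a correlation of -0.0226, and only the number ties them, so the block was not used. Where a plate was left out, the lone plate of its experiment was assumed to vary like the other pair. S100A9 was also not called without the mitochondrial limit (edgeR adjusted p = 0.108) or with all wells (0.103). Over all genes, the 778 higher calls became 434 without low-resolution replicate 1 and 476 without high-resolution replicate 2, the 769 lower calls became 511 in the latter, and 623 genes were called among the top cells by EMT score. Without low-resolution replicate 1, on another flow cell, S100A8, S100A9, S100P and S100A14 were called and S100A10 was not.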

Other observations

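The S100 genes also differed in their relation to the cell cycle scores across cells. S100A6 had a rho with the S score of -0.342, -0.321, -0.445 and -0.452 and with the G2/M score of -0.312, -0.350, -0.463 and -0.465 (low-resolution replicates 1 and 2, then high-resolution replicates 1 and 2), and it was the one member past -0.3 with either score in every plate. S100A11 had a mean rho of -0.283 and S100P of -0.299 with the G2/M score. S100A10 had means of 0.247 with the S score and 0.275 with the G2/M score, and S100A2 had 0.209 and 0.145. Given both cell cycle scores, the mean rho of S100A6 with the EMT score was 0.214, against 0.102 without them, and S100A10, S100A14 and S100P still followed the EMT score. S100A6 also had a rho of -0.193 to -0.319 with the depth of a cell, and S100A2 of 0.218 to 0.341.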
